A study of Citrus reticulata with 36 samples.

Results

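In ponkan ovules, 174 of 128861 gene identifiers (0.135%) marked the nucellus in every library. Each had its lowest level over 18 nucellus libraries above its highest level over 18 integument libraries. Each also averaged at least 8 times more in nucellus, with 0.05 added to both means. The level on which they were chosen was CPM, which is an identifier's count divided by the library's total and multiplied by 1000000. The identifiers were thus chosen by their measured tissue difference, which is described below without a test. The comparisons of cultivars and of stages were not used in the choice, but the levels in the same nucellus libraries were. An identifier that fell to the integument level in any nucellus library could not be a member. This limits the differences between cultivars or stages that a member could show, and few calls among the members are to be read with that limit.

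Ponkan is a loose-skinned mandarin (Citrus reticulata), and the series asked about seed abortion in it. The tissues were captured by laser from ovule sections of HG, the cultivar "Huagan No.4", and of EG, the cultivar "Egan No.1", and their RNA was amplified before sequencing. The 12 groups, of 3 libraries each, were HG nucellus, EG nucellus, HG integument and EG integument at 18, 28 and 32 days after pollination (DAP). The tables number the stages 1 to 3, read here in time order. No transgene, treatment or other agent is named in the labels. Which tree or fruit a region came from is not in the labels. Libraries of a group may share one. The p-values, which set a difference against the spread between these libraries, would then be too small.

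The nucellus is the maternal tissue at the centre of the ovule, around the embryo sac. It supplies the young embryo sac and seed, and it is partly consumed as the seed grows. In many citrus types its cells also form nucellar embryos, which are clones of the mother plant. The integument encloses the nucellus and becomes the seed coat. The files pair the identifiers with no gene name, description or sequence, so no function is given for any identifier here and the labelled tissues could not be set against known marker genes.

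Total counts were 12687779 to 20947644 per library. In nucellus, replicate 1 of EG at 28 DAP stood apart, with a TMM scaling factor of 0.592 (a factor that adjusts the library size) against 0.791 for the next lowest of the 36 libraries. It also had the fewest identifiers with a count, 55947. Without that library the same rule chose 208 identifiers, with 35 added and 1 lost. In 34 of the 35 it was the lowest nucellus library, which follows from the rule for any identifier that 1 library kept out. Of the 35, 13 had 0 counts in it. Replicate 2 of HG at 32 DAP had the lowest share of its counts in the members, 1.26%.

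The 174 identifiers covered a wide range of levels. Their mean nucellus level lay between 0.864 and 6253 CPM with a median of 21.6 CPM, and their mean integument level lay between 0.00665 and 137 CPM with a median of 1.24 CPM. A captured tissue with fewer cells of a type and one with less RNA per cell cannot be told apart in such data. The ratio of nucellus to integument ranged from 8.03 to 209.9 with a median of 21.3, and it was at least 32 for 49 identifiers and at least 100 for 17. None was at 0 in all integument libraries, and 103 had counts in each of them. The integument mean was a median of 4.22% of the nucellus mean, and in single integument libraries the median member stood at 1.97% to 5.42% of its nucellus mean.

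**Figure D1:**
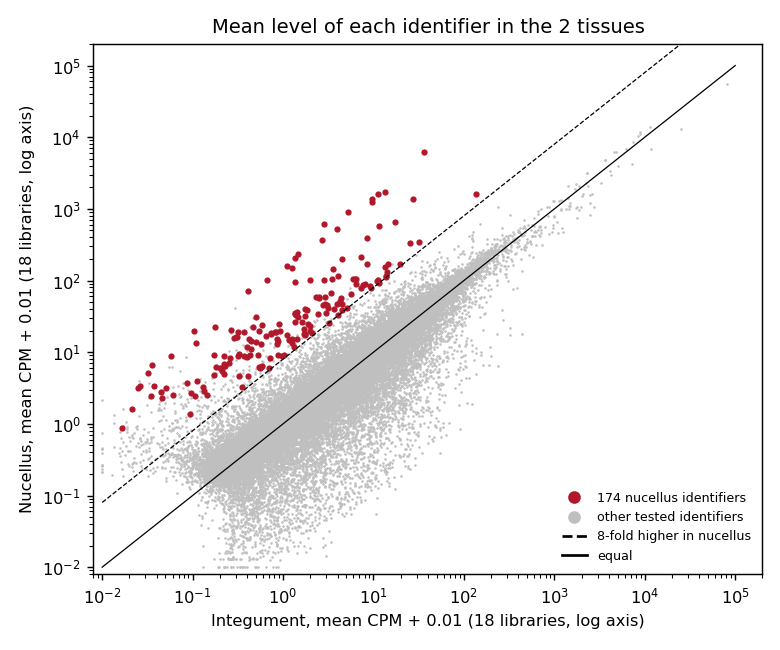
Mean CPM over 18 nucellus libraries (vertical) against mean CPM over 18 integument libraries (horizontal), both plus 0.01 on log axes; red points are the 174 identifiers and grey points the other tested identifiers. All 174 lie above the dashed 8-fold line by the rule, up to 6253 CPM in nucellus, while grey points above that line overlap between tissues or have a ratio under 8 once 0.05 is added.

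Per length, several of them were among the most abundant transcripts of the nucellus. In FPKM (fragments scaled to length and depth), 14 of the 100 highest means in nucellus belonged to these identifiers, although only 1, c88406_g1, was in the first 10. It ranked 8 with a mean of 4990 FPKM. In CPM, where length is not divided out, c88406_g1 alone supplied 23.7% of the summed nucellus level of the 174, and the 7 at 1000 CPM or more supplied 57.4%. No member was among the 100 highest in integument by CPM.

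The most abundant identifier, c88406_g1, had 524 CPM in its lowest, 6497 CPM in its median and 10402 CPM in its highest nucellus library, against 1.86, 30.6 and 91.1 CPM in integument. The lowest nucellus value was 5.75 times the highest integument value, and the ratio of the means was 173. For c31006_g1, the lowest, median and highest values were 1135, 1693 and 2979 CPM in nucellus, against 1.13, 13.4 and 28.0 CPM in integument. Its nucellus libraries spread less than those of c88406_g1 and lay farther from integument, with the lowest at 40.5 times the highest integument value, the widest such gap of the 174.

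The largest ratio was that of c36715_g1, with 139.6, 617 and 1353 CPM as lowest, median and highest values in nucellus and 0.196, 2.44 and 9.38 CPM in integument. The ratio was 209.9, and the length implied by its counts and FPKM was 252 bases, against a median of 1800 bases over 173 members. The steadiest member at 5 CPM or more was c29441_g1, at 47.3, 64.05 and 82.2 CPM as lowest, median and highest in nucellus and 0.678, 3.66 and 7.26 CPM in integument. Its coefficient of variation over the 18 nucellus libraries was 16.1%. The most variable at that level, c127604_g1, spanned 0.423 to 33.6 CPM in nucellus (median 5.58 CPM) and 0 to 0.133 CPM in integument, where 13 of 18 libraries had 0 counts.

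Just inside the threshold, c60695_g1 had a mean and SD of 25.8 ± 17.6 CPM over the 18 nucellus libraries and 3.17 ± 1.66 CPM over the 18 integument libraries, a ratio of 8.03. Just outside, c114370_g1 had 29.7 ± 11.3 CPM over the nucellus libraries and 3.66 ± 1.58 CPM over the integument libraries, a ratio of 7.998. Below the threshold, 146 further identifiers were separated in every library. Another 240 had a ratio of at least 8 but overlapped between tissues. In 10 of the 174 the lowest nucellus value was under 1.1 times the highest integument value, so their place rests on single libraries.

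Together the 174 identifiers took 2.64 ± 0.674% of the counts of a nucellus library and 0.0725 ± 0.0220% of an integument library (SD, n = 18 each). In HG nucellus the 3 libraries had 3.13%, 3.32% and 3.14% at 18 DAP, 2.72%, 2.43% and 1.89% at 28 DAP, and 2.44%, 1.26% and 3.82% at 32 DAP. In EG nucellus they had 3.31%, 3.01% and 1.78% at 18 DAP, 1.82%, 2.48% and 2.03% at 28 DAP, and 3.21%, 2.87% and 2.87% at 32 DAP. The lowest and the highest of the 18 nucellus libraries were thus replicates 2 and 3 of a single group, HG at 32 DAP. HG and EG overlapped at each stage.

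**Figure D2:**
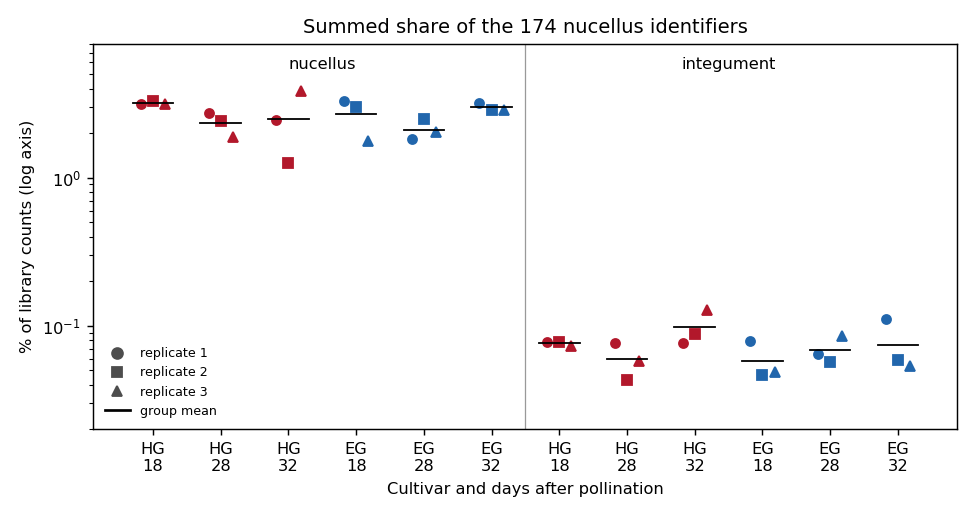
Share of each library's counts (%, log axis) that came from the 174 identifiers, by tissue, cultivar (HG red, EG blue) and days after pollination; symbols are replicates and bars are group means of 3 libraries. The nucellus libraries lie between 1.26% and 3.82% and the integument libraries between 0.0434% and 0.128%, with the widest spread in HG nucellus at 32 days.

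The low share in replicate 2 of HG nucellus at 32 DAP was uneven over the members. In levels scaled by TMM factors (TMM-normalised CPM), c88406_g1 had 4320, 545 and 8824 in the 3 libraries of that group. Relative to the mean of replicates 1 and 3, replicate 2 had a median of 0.778 over the 174, yet 61 members were above that mean. Under 0.25 of it lay 15 members (8.62%), near the 7.39% of all tested identifiers, so such low values were not particular to the members. Of the 7 members at 1000 CPM or more, 4 were under 0.5 of that mean, with no share of all given. Identifiers that marked the integument by the mirror of the rule were 454 in number. In replicate 2 of HG at 32 DAP they were at a median of 2.83% of their integument mean. Over all 18 nucellus libraries this median was 0.231% to 4.92%, with 0.231% in replicate 1 of EG at 28 DAP. The mirror rule kept only identifiers that were low in each of these same libraries. Low values are thus built in, and nothing is read from them.

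Cultivars were compared within each stage to ask whether the nucellus programme of HG and EG ovules differed. No member was called by edgeR's quasi-likelihood test at 18, 28 or 32 DAP, beside 0.00174%, 0% and 0.0541% of all tested identifiers. At an unadjusted p under 0.05 there were 2 higher and 0 lower in HG at 18 DAP, 12 higher and 9 lower at 28 DAP, and 21 higher and 5 lower at 32 DAP. These are 1.15%, 12.1% and 14.9% of the members, against 7.51%, 12.4% and 9.53% of all tested identifiers. That fit took in all 36 libraries, integument included. Fitted on the 18 nucellus libraries alone, the shares were 4.60%, 18.4% and 27.0% of the members, against 6.41%, 10.8% and 9.13% of all. How the members stood against all tested identifiers thus depended on the fit. DESeq2 called 0, 1 and 2 members at the 3 stages (the adjusted p was not given for 126 members at 18 DAP and 1 at 32 DAP), and 0.0192%, 0.846% and 0.771% of all. Of the 57344 tested identifiers, 53365 at 18 DAP, 2228 at 28 DAP and 6675 at 32 DAP had no adjusted p from DESeq2.

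The median log2 fold change of the members, HG over EG, was 0.17 at 18 DAP, -0.07 at 28 DAP and 0.22 at 32 DAP, against -0.03, -0.03 and 0.04 over all tested identifiers. At 28 DAP this median was 0.19 without replicate 1 of EG, where it was -0.01 over all, and the 12 higher and 9 lower became 14 and 0 (8.05% of the members, against 6.03% of all). At 32 DAP it was 0.26 without replicate 2 of HG, and the 21 higher and 5 lower became 17 and 1 (10.3%, against 6.68% of all). Without replicate 1 of EG at 28 DAP, edgeR called 2 members higher in HG at 32 DAP. Of all tested identifiers it then called 145 of 59170, against 31 of 57344 with every library.

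The member with the smallest p at 18 DAP, c94635_g1, had 7.49, 7.67 and 7.25 TMM-normalised CPM in HG nucellus, against 2.26, 3.60 and 3.30 in EG nucellus. The groups did not overlap, with a log2 fold change of 1.29 (SE 0.56, edgeR adjusted p = 0.619). On the lower side c116137_g1 had 133, 133 and 122 in HG nucellus, against 216, 256 and 116 in EG nucellus, which overlapped (log2 fold change -0.60, edgeR adjusted p = 0.809). At 28 DAP c88803_g1 had 63.5, 153 and 81.8 in HG nucellus, against 25.2, 49.6 and 23.3 in EG nucellus, again without overlap (log2 fold change 1.60, SE 0.46, edgeR adjusted p = 0.201). None of these passed the threshold.

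At 28 DAP the smallest p on the lower side was that of c54377_g1, with 32.96, 46.5 and 49.2 TMM-normalised CPM in HG nucellus and 319, 33.0 and 48.6 in EG nucellus. A single EG library, replicate 1, set that difference. The log2 fold change was -1.64 (SE 0.62, edgeR adjusted p = 0.285) and became 0.06 without it.

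At 32 DAP the smallest p on the lower side was that of c98702_g1, at 2.32, 0.704 and 0.719 TMM-normalised CPM in HG nucellus and 3.96, 4.60 and 5.66 in EG nucellus. All HG libraries were below all EG libraries. It was not called (log2 fold change -1.91, SE 0.67, edgeR adjusted p = 0.332).

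On the higher side, c127604_g1 had the smallest p among the members both at 32 DAP and for the mean of the stages. At 32 DAP it had 4.73, 7.87 and 4.90 TMM-normalised CPM in HG nucellus, against 1.11, 0.396 and 0.944 in EG nucellus, without overlap (log2 fold change 2.82 with an SE of 0.65, edgeR adjusted p = 0.106). At 28 DAP it had 8.46, 4.85 and 6.87 in HG nucellus, against 3.08, 0.979 and 3.21 in EG nucellus. At 18 DAP it had 7.49, 30.5 and 9.54 in HG nucellus, against 7.29, 5.64 and 6.80 in EG nucellus. On this scale every HG library was above every EG library of its own stage. On CPM without TMM factors the cultivars overlapped at 18 DAP, with replicate 1 of HG at 8.30 and replicate 1 of EG at 8.93.

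Averaged over the stages, the difference of c127604_g1 was 1.86 on the log2 scale (SE 0.36, edgeR adjusted p = 0.0633). It did not pass the threshold, and no member did for this average, where 0.0157% of all tested identifiers were called. At an unadjusted p under 0.05 there were 10 members higher and 2 lower in HG (6.90%, against 10.6% of all). Without replicate 1 of EG at 28 DAP these were 26 higher and 2 lower (16.1%, against 11.5% of all), with a median log2 fold change of 0.22, and without replicate 2 of HG at 32 DAP 16 and 2 (10.3%, against 9.97% of all). A fit of all 18 nucellus libraries alone had 18 higher and 10 lower at that p (16.1%, against 9.66% of all). DESeq2 called 4 members, all higher in HG, c127604_g1 among them, and 0.631% of all. With edgeR it was also called without replicate 1 or 3 of EG at 28 DAP or replicate 1 of HG at 32 DAP. The smallest p on the lower side was that of c96831_g1, at 2.58 to 10.7 TMM-normalised CPM (median 4.88) in the 9 HG libraries and 4.06 to 22.8 (median 10.8) in the 9 EG libraries (log2 fold change -1.13, edgeR adjusted p = 0.332). No member had all 9 HG libraries above, or all 9 below, the 9 EG libraries, where 0.00872% and 0.00349% of all tested identifiers did.

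**Figure D3:**
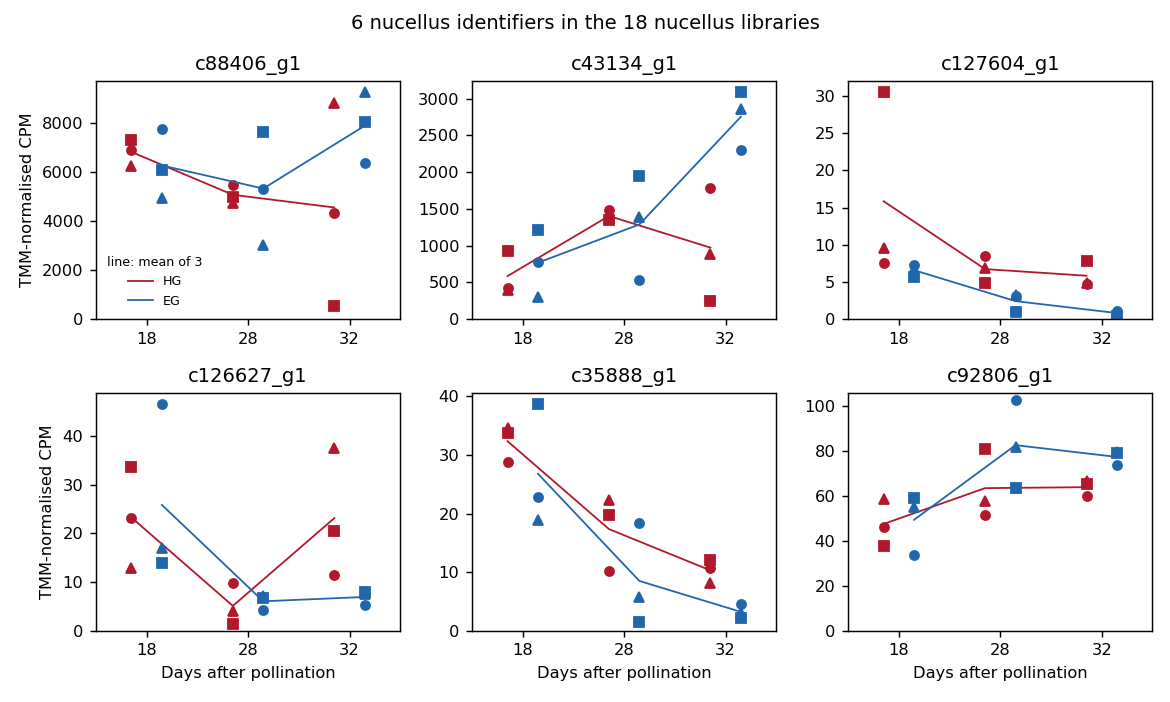
TMM-normalised CPM (linear axes from 0) of 6 of the identifiers in each nucellus library at 18, 28 and 32 days after pollination; HG red, EG blue, symbols are replicates 1 (circle), 2 (square) and 3 (triangle), and lines join the means of 3 libraries. On this scale c127604_g1 is higher in each HG library than in any EG library of its stage, c88406_g1 is at 545 in replicate 2 of HG at 32 days, and c35888_g1 is lower in each library at 32 days than in any at 18 days.

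Stages were compared over both cultivars to ask how the nucellus level moved with ovule development. These comparisons share libraries, so their values are set side by side only. A single member was called, c127604_g1, at 32 against 18 DAP. Its 6 libraries at 32 DAP, 3 of HG and 3 of EG, had 0.396 to 7.87 TMM-normalised CPM with a median of 2.92, against 5.64 to 30.5 with a median of 7.39 at 18 DAP. It fell by 2.22 on the log2 scale (SE 0.44, edgeR adjusted p = 0.0392), to 3.33 ± 2.98 at 32 DAP against 11.2 ± 9.53 at 18 DAP (SD, n = 6 each). On this scale the stages overlapped through replicate 2 of HG at 32 DAP, while the other 5 libraries at 32 DAP lay below the lowest at 18 DAP.

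That call rested on single libraries. Without replicate 2 of HG at 18 DAP, its highest library, the log2 fold change was -1.78 with an edgeR adjusted p of 0.160. With 1 nucellus library left out at a time, its adjusted p from edgeR lay between 0.0233 and 0.160, and its call was lost in 12 of 18 repeats. These were the ones without any of the 6 libraries at 32 DAP, without any of the 3 of EG at 18 DAP, without replicate 2 or 3 of HG at 18 DAP, or without replicate 3 of HG at 28 DAP. In each of them its log2 fold change was still negative.

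For 32 against 18 DAP, 0.0924% of all tested identifiers were called. At an unadjusted p under 0.05 there were 2 members higher and 21 lower at 32 DAP, which is 13.2% of the members against 8.62% of all. Fitted on nucellus libraries alone, 6 were higher and 29 lower at that p (20.1%, against 7.86% of all). DESeq2 called 8 members, all lower at 32 DAP, and 0.53% of all. Without replicate 1 of EG at 28 DAP, edgeR called 6 members lower. Of all tested identifiers it then called 134 of 59170, against 53 of 57344 with every library. Members called were 3 without replicate 2 of that group and 2 without replicate 1 of HG at 28 DAP. The calls over all identifiers are not given for these last fits, so nothing is read from them. The median log2 fold change was -0.08, against 0.01 over all tested identifiers.

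In 5 members (2.87%, against 0.382% of all tested) all 6 libraries at 32 DAP were below all 6 at 18 DAP. One of them, c35888_g1, had 10.7, 12.1 and 8.11 TMM-normalised CPM in HG and 4.53, 2.18 and 2.98 in EG at 32 DAP. At 18 DAP it had 28.8, 33.7 and 34.6 in HG and 22.7, 38.7 and 18.9 in EG. The other way round, c92806_g1 was the single member with all 6 libraries at 32 DAP above all 6 at 18 DAP (0.575%, against 0.241% of all).

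For c92806_g1 the libraries at 32 DAP had 60.1, 65.3 and 66.5 TMM-normalised CPM in HG and 73.6, 79.0 and 79.7 in EG. At 18 DAP they had 46.1, 37.9 and 58.8 in HG and 33.7, 59.4 and 55.2 in EG. The stages did not overlap on this scale, and the difference was not called (log2 fold change 0.54, SE 0.20, edgeR adjusted p = 0.419). On CPM without TMM factors 2 members, in place of 5, had all libraries at 32 DAP below all at 18 DAP, and 0, in place of 1, had them above. The share of all tested identifiers on CPM is not given.

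At 28 against 18 DAP, edgeR called no member and 0.131% of all tested identifiers, with 7 members higher and 12 lower at an unadjusted p under 0.05 (10.9%, against 13.8% of all) and a median log2 fold change of -0.11. Without replicate 1 of EG at 28 DAP these were 3 higher and 30 lower (19.0%, against 13.8% of all), with a median of -0.20. A fit of all 18 nucellus libraries alone had 9 higher and 21 lower at that p (17.2%, against 12.7% of all). DESeq2 called 6 members, all lower at 28 DAP, and 1.58% of all. Without replicate 1 of EG at 28 DAP edgeR called 2 members and 230 of 59170 tested identifiers, against 75 of 57344 with every library. Without replicate 2 of HG at 32 DAP it called 1 member and 81 of 59255. It called 4 members without replicate 1 of HG at 28 DAP, 2 without replicate 1 of HG at 32 DAP and 1 without replicate 3 of EG at 28 DAP. The calls over all identifiers are not given for these last fits, so nothing is read from them. In the fits without replicate 1 of EG at 28 DAP and without replicate 2 of HG at 32 DAP, the members called were lower at 28 DAP. The closest to the threshold was c126627_g1, with 9.90, 1.43 and 4.01 TMM-normalised CPM in HG and 4.25, 6.80 and 7.13 in EG at 28 DAP. At 18 DAP it had 23.3, 33.6 and 12.96 in HG and 46.6, 14.0 and 16.9 in EG, and no library of one stage reached the other. The log2 fold change was -2.14 (SE 0.47, edgeR adjusted p = 0.0563). It was 1 of 2 members (1.15%) with all libraries at 28 DAP below all at 18 DAP, and 1 member (0.575%) had them all above, where 0.31% and 0.344% of all tested identifiers did. On CPM without TMM factors 6 members lay below and 0 above. The share of all tested identifiers on that scale is not given, so nothing is read from these counts.

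At 32 against 28 DAP, edgeR called no member and 0% of all, with 2 members higher and 1 lower at an unadjusted p under 0.05 (1.72%, against 9.17% of all). With nucellus libraries alone in the fit, 3 were higher and 11 lower at that p (8.05%, against 7.92% of all). DESeq2 called 0 members, with the adjusted p not given for 98, and 0.075% of all. Of the 57344 tested identifiers, 45582 had no adjusted p from DESeq2. The smallest p on the higher side was again that of c126627_g1, at 11.4, 20.5 and 37.5 TMM-normalised CPM in HG and 5.38, 7.86 and 7.60 in EG at 32 DAP (log2 fold change 1.19, edgeR adjusted p = 0.439). On the lower side it was that of c35888_g1 (log2 fold change -1.07, edgeR adjusted p = 0.539). No member separated these stages without overlap, where 0.174% of all tested identifiers did upward and 0.138% downward. On CPM without TMM factors 1 member did, upward, with no share of all given on that scale. The member median of the log2 fold change was -0.06, and 0.09 without replicate 1 of EG at 28 DAP, where 6 members were higher and 0 lower at an unadjusted p under 0.05 (3.45%, against 6.65% of all).

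Within each cultivar, 32 against 18 DAP gave no call among the members with edgeR, where 0% of all tested identifiers were called in HG and 0.00349% in EG. At an unadjusted p under 0.05 the HG comparison had 1 member higher and 11 lower, and the EG comparison 3 higher and 22 lower. These are 6.90% and 14.4% of the members, against 8.61% and 5.77% of all. With nucellus libraries alone in the fit, the shares were 13.8% in HG and 21.8% in EG, against 7.40% and 5.45% of all. DESeq2 called 0 in HG and 4 in EG, all lower at 32 DAP, and 0.239% and 0.181% of all.

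In EG, c43134_g1 had 2302, 3096 and 2857 TMM-normalised CPM at 32 DAP, against 782, 1215 and 306 at 18 DAP. The libraries did not overlap (log2 fold change 1.84, SE 0.75, edgeR adjusted p = 0.770). In HG the same member had 1787, 248 and 884 at 32 DAP, against 429, 931 and 398 at 18 DAP, with overlap.

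Also in EG, c73346_g1 had 0.978, 0.692 and 0.844 TMM-normalised CPM at 32 DAP, against 5.60, 11.6 and 5.32 at 18 DAP (log2 fold change -3.15, SE 0.67, edgeR adjusted p = 0.209). In HG, c55512_g1 had 3.06, 1.53 and 0.458 at 32 DAP, against 6.05, 9.89 and 4.36 at 18 DAP (log2 fold change -1.995, SE 0.71, edgeR adjusted p = 0.425). Both were lower in every later library, and neither was called. In HG the smallest p on the higher side was that of c61950_g1, at 21.4, 75.5 and 31.4 at 32 DAP, against 26.1, 19.05 and 23.2 at 18 DAP (log2 fold change 0.91, edgeR adjusted p = 0.576).

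The stage of the highest mean varied among the members. In HG it was 18 DAP for 78 members (44.8%), 28 DAP for 50 (28.7%) and 32 DAP for 46 (26.4%), and over all tested identifiers these shares were 29.3%, 35.7% and 35.0%. In EG it was 18 DAP for 63 (36.2%, against 34.3% of all), 28 DAP for 66 (37.9%, against 34.6%) and 32 DAP for 45 (25.9%, against 31.2%). On CPM without TMM factors the members' counts for the 3 stages in order were 76, 47 and 51 in HG and 85, 22 and 67 in EG. The shares of all on that scale are not given. The highest stage, by TMM-normalised CPM, was the same in both cultivars for 53 members (30.5%, against 32.9% of all tested). For 96 members the stage means lay within 2-fold in each cultivar (55.2%, against 55.0% of all tested and 83.0% of those whose mean is at or above the member median), and for 4 they were over 4-fold apart in both.

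The interaction tests gave no calls with edgeR among the members or among all tested identifiers (0%). They asked whether the cultivar difference changed with stage, and whether the tissue difference changed with cultivar or with stage. At an unadjusted p under 0.05 there were 17 members for cultivar by stage (9.77%, against 11.6% of all), 15 for tissue by cultivar (8.62%, against 2.86%) and 22 for tissue by stage (12.6%, against 3.15%). DESeq2 called 1, 0 and 1 members, and 0.696%, 0.00349% and 0.0419% of all. Cultivar by stage had 10 members at that p without replicate 1 of EG at 28 DAP (5.75%, against 8.36% of all) and 11 without replicate 2 of HG at 32 DAP (6.32%, against 9.46%).

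Both tests with tissue bear on the tissue difference by which the members were chosen, so their counts are a description and nothing is read from the shares. Nucellus and integument libraries with the same number were also fitted as pairs, an alternative chosen after seeing the data. In that fit edgeR called no member, and 0 and 7 of all tested identifiers for tissue by cultivar and tissue by stage. At an unadjusted p under 0.05 it had 24 members (13.8%, against 5.69% of all) and 30 members (17.2%, against 6.20%) for these tests. The smallest p for tissue by cultivar was that of c61687_g1. Its means at 18, 28 and 32 DAP were 8.05, 11.2 and 6.22 TMM-normalised CPM in HG nucellus, 7.71, 12.5 and 10.3 in EG nucellus, 0.592, 0.408 and 0.928 in HG integument, and 0.0687, 0.321 and 0.226 in EG integument. The mean was higher in HG integument than in EG integument at each stage (log2 difference of differences -2.02, SE 0.42, edgeR adjusted p = 1). These integument levels were low, and at 28 DAP the libraries overlapped, with 0.279, 0.301 and 0.644 in HG and 0.281, 0.388 and 0.295 in EG. At 18 and 32 DAP they did not overlap. For cultivar by stage the smallest p was that of c54377_g1 (edgeR adjusted p = 0.253), and for tissue by stage that of c74342_g1 (edgeR adjusted p = 0.474).

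Group means of the members varied across the 6 groups of nucellus libraries. The highest group mean was a median of 2.17 times the lowest, and up to 19.4 times. For 68 members (39.1%) the group means stayed within 2-fold, while 75.7% of 8761 tested identifiers at or above the member median did. That set is more abundant than the members as a whole, and the difference between the shares was not tested. The coefficient of variation over the 18 nucellus libraries had a median of 46.7% over the members, against 44.1% over all tested identifiers and 29.0% over the 8899 at or above the member median CPM.

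Over the 18 nucellus libraries, which all members share, the Pearson correlation of log2 levels between 2 members had a median of 0.10, and its quartiles were -0.17 and 0.35. Grouping by correlation, with the cutoff chosen after seeing the data, gave 3 sets of at least 8 members. They held 54 of the 174.

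The largest set had 33 members, led by c40675_g1 and c128441_g1 at 1604 and 349.5 CPM in nucellus. Its members were above their own mean in all 33 cases in replicate 1 of EG at 28 DAP and in replicate 3 of HG at 18 DAP. In replicates 2 and 3 of EG at 28 DAP, 0 and 2 of them were. On CPM without TMM factors 27 of the 33 were above their mean in replicate 1 of EG at 28 DAP and all 33 were in replicate 3 of HG at 18 DAP. The sets were formed on these same libraries, so likeness within a set is built in.

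The second set had 11 members, led by c85961_g1 and c12982_g1. At 18, 28 and 32 DAP its median log2 deviation was 0.72, 0.45 and -0.20 in HG and 0.57, -0.65 and -0.85 in EG. In replicates 2 and 3 of EG, no member was above its own mean at either 28 or 32 DAP, while 6 of 11 were in replicate 1 of EG at 28 DAP, and 1 of 11 on CPM without TMM factors.

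The third set had 10 members, led by c43134_g1 and c20154_g1. All 10 were above their mean in each of the 3 EG libraries at 32 DAP, and none was in replicate 2 of HG at 32 DAP, where the median log2 deviation was -2.02. None was in replicate 3 at 18 DAP in either cultivar.

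**Figure D4:**
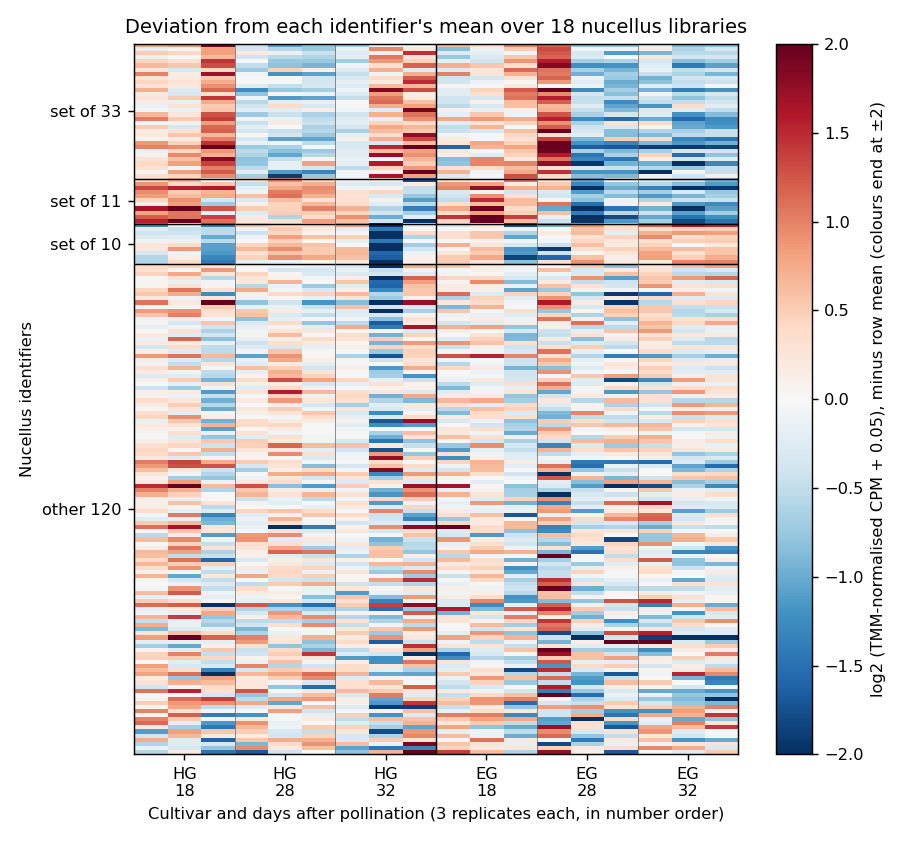
Heat map of the 174 identifiers (rows) over the 18 nucellus libraries (columns, HG then EG, 18, 28 and 32 days after pollination); colour is log2 of TMM-normalised CPM plus 0.05 minus the row mean, with colours ending at ±2. Rows are split into the sets of 33, 11 and 10 and the other 120; on this scale the set of 33 is red in replicate 1 of EG at 28 days and the set of 10 is blue in replicate 2 of HG at 32 days.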

How the data were processed

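The authors deposited a table of whole-number read counts per identifier and a table of FPKM values with the same rows and columns, rounded by the authors. The tools named in the submitters' processing notes are RSEM, Bowtie2, cutadapt and DESeq (versions, roles and assembly: not given in the sources used here). Estimates from RSEM need not be whole, and whether the deposited counts were rounded is not stated. Columns number the stages 1 to 3, and no label pairs these with DAP; they were read in time order as 18, 28 and 32 DAP. The labels give no batch, and the instrument of each library is not given.

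Members were chosen on CPM of the deposited counts. The members, lists and tests were chosen with earlier results of these data known. Tests used edgeR 4.0.16 (R 4.3.3), a quasi-likelihood F test with TMM normalisation, robust dispersion, and 1 mean per group over all 36 libraries. Identifiers were kept by filterByExpr (12 groups, minimum count 10, minimum total 15), which left 57344 with 99.9% of counts, including all 174 members. The Benjamini-Hochberg adjustment ran over all of them, with a threshold of 0.05. The fit had 24 residual degrees of freedom and a common biological coefficient of variation of 0.439. The scripts were tested on simulated data. DESeq2 1.42.0 and limma 3.58.1 (on log2 of FPKM plus 1 or 0.1) served as alternatives, with a fit without a filter, with replicate numbers as a block, on nucellus libraries alone, and leaving out each library. No interval on counts is given, since reads amplified without molecular tags do not stand for separate molecules.

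Named identifiers were the 2 highest means and the largest ratios, the members nearest the threshold, the lowest and highest coefficient of variation at 5 CPM or more and, per comparison, up to 2 called each way at 5 CPM or more, or otherwise the smallest p each way. Those named from the sets and the separated stages were chosen after their values were seen. Replicate numbers did not pair the nucellus libraries: correlations of same-numbered deviations were -0.226 to 0.284, and in no comparison did all exceed 0.1. Nucellus and integument libraries of the same number correlated at 0.049 to 0.455.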

Additional observations from a re-analysis of the deposited data

How the results depend on the processing

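The rule chose 110 identifiers at a ratio of 16, 216 at 4, 133 with 0.5 in place of 0.05, 167 on FPKM and 172 on TMM-normalised CPM (163 shared), and 170 to 208 with 1 library left out. Members called by DESeq2, limma with 1 added to FPKM and limma with 0.1 added, in that order, were 6, 10 and 2 at 28 against 18 DAP, and 8, 9 and 3 at 32 against 18 DAP. For 32 against 18 DAP in EG they were 4, 6 and 2. For HG against EG they were 2, 3 and 1 at 32 DAP, and 4, 7 and 1 for the mean of stages. For tissue by stage they were 1, 3 and 1. Of 57344 tested identifiers, limma (1 added, then 0.1) called 122 and 76 at 28 against 18 DAP and 105 and 61 at 32 against 18 DAP. For 32 against 18 DAP in EG it called 37 and 15. For HG against EG it called 88 and 46 at 32 DAP and 49 and 25 for the mean of stages. For tissue by stage it called 25 and 10. At 28 DAP, HG against EG gave 1 member with DESeq2 and 4 with limma (1 added, 24 of all). HG at 32 against 18 DAP gave 2 members with limma (1 added, 38 of all). Cultivar by stage gave 1 member with DESeq2. Without a filter on low counts the mean of stages and 28 against 18 DAP each gave 1 member, and 19 and 82 of 94197 identifiers. Nucellus libraries alone gave 3 members at 32 against 18 DAP, and 25 of 53420 identifiers. The replicate block gave 1 member at 28 against 18 DAP and 0 at 32 against 18 DAP, and 83 and 50 of all tested identifiers. At 32 against 18 DAP c127604_g1 was then at -2.22 on the log2 scale. In the other comparisons no member was called, with or without the block. For the mean of stages, HG against EG, the block gave 5 of all tested identifiers, against 9 without it. Pairing nucellus with integument libraries of a number, chosen after seeing the data, gave 0 members for both tests with tissue. With 1 library left out, members called ranged over 0 to 4 at 28 against 18 DAP and 0 to 6 at 32 against 18 DAP. They ranged over 0 to 2 for HG against EG at 32 DAP and 0 to 1 for the mean of stages, and were 0 in the other comparisons. The calls over all identifiers are not given for most of these fits, so nothing is read from these ranges. Among the values of single identifiers, 737 kept direction and side, 22 passed the threshold, 13 no longer did, and 1 moved. For c54377_g1, HG against EG at 28 DAP, the log2 fold change with 1 library left out lay between -2.05 and 0.0586, and its direction turned without replicate 1 of EG. The adjusted p of c127604_g1 under the 6 other settings was 1.60e-04 to 0.0542 at 32 against 18 DAP and 2.35e-04 to 0.118 for the mean of stages. The cause of these shifts was not tested.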
